A study of Drosophila melanogaster with 60 samples.

Results

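CG12643 and CG13830 are a pair of Drosophila melanogaster genes whose transcripts were more abundant in wild type females than in wild type males through metamorphosis. Each was read by 1 array probe, DAC033F12 for CG12643 and DAC039N12 for CG13830, which makes 2 of the 12342 probes that had a value on at least 1 array. Both were chosen on the wild type sex difference itself. Of the 3791 probes in the joint wild type sex test, 72.4% passed the threshold, 53.3% with a higher mean in females and 19% with a lower one. Among the probes that passed, 214 had a value on every wild type array and were higher in females at all 5 hours. When these were ranked by their mean female minus male difference, DAC033F12 came in place 2 at 0.94 and DAC039N12 in place 3 at 0.87 on the log2 scale, just after DAC035P20 at 1.08, which has no paired gene name, and just before CG1934 at 0.82. The wild type sex difference of both genes is therefore given below as a description without a test, and so is every comparison of these genes that contains the same wild type arrays split by sex.

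RNA came from whole animals of 2 genotypes, and each sample was hybridised against a common reference made from Canton S males and females of all pupal stages. The tud progeny were the sons and daughters of tud1 bw1 sp1 mothers and of fathers carrying y, w, P[w+cM UBI-GFP] on the X chromosome and an FRT insertion. Loss of maternal tudor leaves the offspring without germ cells, and the daughters, but not the sons, carried the GFP marker by which they were sorted. The wild type animals were Canton S males and females. The tud progeny and the wild type therefore differ in genetic background as well as in the germline, and these cannot be told apart here. Each RNA was pooled from many animals aged for 0, 24, 48, 72 or 96 h after puparium formation (APF), where 0 h is the white prepupa and 96 h the pharate adult. There were 3 arrays for each sex of each genotype at each hour, which makes 20 groups and 60 arrays, and nothing in the labels says whether replicates were separate collections, so the p-values measure only the spread between these samples. For tud females at 48 h, the characteristics of replicate 1 are those of the reference and the age of replicate 2 is off by a little, and both samples were kept where their titles put them.

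CG13830 encodes Carrier of Wingless (Cow), a secreted heparan sulfate proteoglycan related to the vertebrate testicans. In the wing disc Cow binds the secreted signal Wingless outside the cell and affects how far it travels. Wingless, the founding member of the Wnt family, signals through Frizzled receptors and the co-receptor Arrow to stabilise Armadillo, the fly beta-catenin, and patterns the imaginal discs that are reshaped into adult structures during metamorphosis. RefSeq places CG13830 on chromosome 3R. CG12643 lies on the X chromosome and is known here by its annotation number alone. In flies the single X chromosome of the male is transcribed at an elevated rate, a process that uses the roX RNAs.

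Every value is the log2 ratio of a sample to the reference, so a difference of 1 is a doubling, and the level of a probe is not set against that of another. Between 3954 and 10236 probes had a value on an array (median 6519.5). The sample dye is given differently in the labels and the methods. The direction was therefore read from roX1, which had median log2 ratios of -5.92 in tud females and 1.18 in tud males, and of -3.89 in wild type females and 1.11 in wild type males. Of 11 marker genes of male germ cells, 4 had a named probe, and all 4 had a higher median in wild type males than in the other animals. The testis-specific tubulin betaTub85D had a median of -7.03 in tud males, against 0.81 in wild type males. Only 2 of 12 marker genes of female germ cells had a named probe. The yolk protein receptor yl had medians of 0.46 in tud females and 0.67 in wild type females, with values on 9 and 12 of the 15 arrays, against 0.15 in tud males and -0.32 in wild type males. The other, cup, had -1.34 in tud females and in wild type females, against -1.43 in tud males and 0.68 in wild type males. None of 6 markers of follicle cells and female fat body had a named probe. In whole animals, fewer cells of a type and less RNA per cell cannot be told apart. The part that the absent germ cells play in the values of CG12643 and CG13830 was not tested.

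In tud progeny, which lack germ cells, the female mean of CG12643 exceeded the male mean most at the first and the last hour. Values are given for replicates 1 to 3 in turn. At 0 h the log2 ratio was 0.28, 0.30 and 0.71 in tud females, against -0.15, -0.20 and -0.21 in tud males. Every tud female lay above every tud male at this hour. At 24 h the tud females had 0.67, 0.44 and 0.61 and the tud males 0.49, 0.56 and 0.52. At 48 h the values were 0.16, -0.00065 and -0.14 in tud females and 0.19, -0.29 and 0.20 in tud males. At 72 h they were -2.01, -1.21 and -1.67 in tud females and -1.05, -1.90 and -1.29 in tud males. The sexes overlapped at these 3 hours. By 96 h the tud females had -1.94, -1.97 and -2.25, while the tud males had -2.20, -2.28 and -3.73. The sexes overlapped there too, since only the male of replicate 3 stood well below the females.

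No sex difference of CG12643 in tud progeny passed the threshold of an adjusted p (Benjamini-Hochberg) under 0.15. The study set the same level on q values, another adjustment. From 0 to 96 h the female minus male differences were 0.62, 0.05, -0.03, -0.22 and 0.68, each with a standard error (SE) of 0.31. The mean over the 5 hours was 0.22 ± 0.14 (SE), with a 95% interval of -0.06 to 0.50, so a difference of up to 0.50 toward females is within the error. The joint limma test over the 5 hours gave an adjusted p of 0.519, where 3.24% of the probes tested passed, and the joint test over 0 to 72 h gave 0.894, where 1.8% passed. At these hours in turn the adjusted p was 1, 0.99, 0.988, 1 and 0.278 in limma. The shares of all probes called at those hours were 0.0322%, 1.62%, 0.66%, 0.899% and 4.61%. The 96 h difference had an unadjusted p of 0.0355 in limma and hung on single arrays. It was 0.18 without tud male replicate 3, 0.95 (adjusted p = 0.0749 in limma) without tud male replicate 1 and 0.91 (adjusted p = 0.122) without tud male replicate 2. A test of whether this difference changed between hours gave an adjusted p of 0.672 in limma, where 0.771% of probes passed. All females lay above all males at 1 of 5 hours, and 30% of the probes with complete values did so at 1 or more hours.

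In wild type animals the females had the higher mean of CG12643 at all 5 hours, which the choice of the probe required. At 0 h the wild type females had 0.52, 0.85 and 0.74, against -0.18, -0.07 and -0.05 in the wild type males. At 24 h the values were 0.56, 0.85 and 0.40 in females and -0.97, 0.06 and 0.44 in males. Male replicate 1 stood apart there, and the difference of 0.76 was 0.35 without it. At 48 h the females had -0.02, 0.80 and 0.16, and the males had -0.38, -0.11 and -0.37. At 72 h the females were spread from 0.38 in replicate 1 to -0.66 and -1.06 in the others, and the males had -0.82, -0.53 and -1.46. The difference of 0.49 at this hour was 0.07 without female replicate 1 and 0.88 with quantile normalization. At 96 h the females had -2.29, -2.12 and -2.32, and the males had -3.96, -4.47 and -4.48. This was the widest separation, a female minus male difference of 2.06 ± 0.31 (SE) or 4.17-fold, against 0.81, 0.76, 0.60 and 0.49 at the earlier hours with the same SE. The mean over the 5 hours was 0.94 ± 0.14 (SE), and over 0 to 72 h it was 0.66 ± 0.16 (SE). The sexes did not overlap at 0, 48 and 96 h. Such separation at 3 or more hours was seen for 19.2% of probes with complete values, and nothing is read from this because the same values chose the gene. The median of all probes tested in wild type was itself shifted toward females by 0.20. The mean difference of CG12643 was 0.86 once the arrays were centred on their medians. Those medians were taken over all probes with a value, so centring removed only part of the shift of the probes tested.

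**Figure D1:**
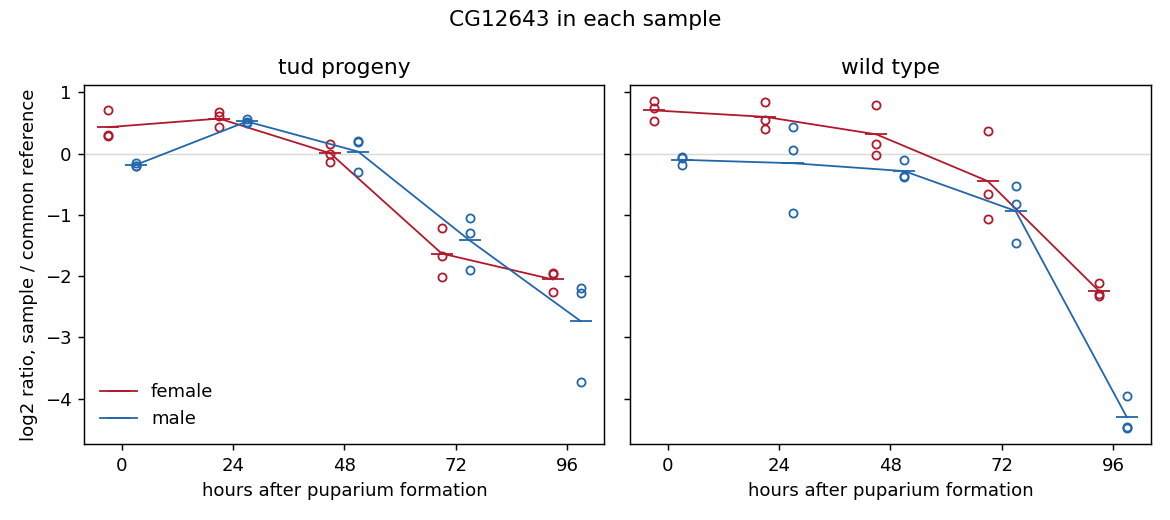
Log2 ratio of CG12643 to the common reference in each sample (open circles) against hours after puparium formation, with tud progeny on the left and wild type on the right, females in red and males in blue. Lines join the group means of 3 arrays. All groups are low at 96 h, and the wild type males, with a mean of -4.30, are the lowest group.

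CG12643 fell at the later hours in both genotypes. Averaged over the sexes, tud progeny had 0.12, 0.55, 0.02, -1.52 and -2.40 from 0 to 96 h, a span of 2.94. The time effect in tud progeny had an adjusted p of 9.53e-17 in limma, in a comparison where 95.5% of all probes passed. Each step was tested as the later minus the earlier hour. CG12643 rose by 0.43 ± 0.22 (SE) to 24 h (adjusted p = 0.11 in limma, 59.8% of probes called). It then fell by 0.53 ± 0.22 to 48 h (adjusted p = 0.0442, 59.8% called). The steepest step of tud progeny was the next, in which CG12643 fell by 1.54 ± 0.22 to 72 h (adjusted p = 1.88e-07 in limma, 61.5% called). It fell by a further 0.87 ± 0.22 to 96 h (adjusted p = 0.00103 in limma, 63% called). The steps to 24 and 48 h no longer passed once arrays were centred on their medians, and these and the step to 96 h did not pass after quantile normalization. The rise to 24 h also missed the threshold without tud female 0 h replicate 1 or 2, or tud female 24 h replicate 1 (adjusted p = 0.183, 0.174 and 0.156 in limma).

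In wild type animals the steps of CG12643 up to 48 h did not pass, and the last step was the steepest. The mean of the sexes was 0.30, 0.22, 0.01, -0.69 and -3.27 from 0 to 96 h, a span of 3.58 (adjusted p = 2.51e-19 in limma, 93.7% of probes called). The step to 24 h was -0.08 (adjusted p = 0.813 in limma, 49.2% called) and that to 48 h was -0.21 (adjusted p = 0.506, 46.9% called). CG12643 then fell by 0.71 ± 0.22 to 72 h (adjusted p = 0.00813 in limma, 54.6% called). It fell by 2.58 ± 0.22 in the last step to 96 h, or 5.98-fold (adjusted p = 2.64e-13 in limma, 67.6% called). The difference between the genotypes in these steps was not tested. Without wild type male 24 h replicate 1 the step to 24 h was 0.12 and that to 48 h was -0.41 and passed (adjusted p = 0.134 in limma). With array weights the step to 48 h was -0.36 and passed too (adjusted p = 0.0915). A probe that is weak in the sample alone keeps its low ratio in these data, and whether the signal of CG12643 at 96 h stood above background is unknown.

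Between the genotypes, CG12643 differed most at 72 h in females and at 96 h in males. At 72 h tud females averaged -1.63 ± 0.40 and wild type females -0.45 ± 0.74 (SD, n = 3 each), a tud minus wild type difference of -1.18 ± 0.31 (SE), and the groups did not overlap. Without wild type female replicate 1 this difference was -0.77, and with quantile normalization it was -1.65. At 96 h tud males averaged -2.74 ± 0.86 and wild type males -4.30 ± 0.29 (SD, n = 3 each), a difference of 1.57 ± 0.31 (SE) or 2.96-fold, again with no overlap. Without tud male replicate 3 the 96 h difference was 2.06. In females the other hours gave -0.27, -0.03, -0.31 and 0.19 at 0, 24, 48 and 96 h. In males they gave -0.08, 0.68, 0.32 and -0.48 at 0, 24, 48 and 72 h, and the 24 h value was 0.27 without wild type male replicate 1. The mean over 5 hours was -0.32 ± 0.14 (SE) in females and 0.40 ± 0.14 in males, and the male mean over 0 to 72 h was 0.11 ± 0.16. The tud minus wild type sex difference averaged -0.72 ± 0.20 (SE), from -0.19 at 0 h to -1.38 at 96 h. All tud females lay below all wild type females at 1 of 5 hours (background 15.3% of probe and hour combinations in that direction, 17.1% in the other). All tud males lay above all wild type males at 2 of 5 hours, 24 and 96 h (background 31.8% in that direction, 14.9% in the other). These comparisons hold the wild type arrays that chose the gene, and the gene name came from a list that the study drew from wild type against tud females, so no test is given.

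CG13830, the Cow gene, had incomplete values in tud progeny. The missing arrays were tud female 24 h replicate 3, tud male 48 h replicate 1, and tud male 96 h replicates 2 and 3. A missing value means that the element was discarded as weak in both channels or as bad. At 96 h the tud males were thus 1 array, and the joint tests of tud progeny were run over 0 to 72 h, a window chosen after the gap was seen.

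In tud progeny the sexes overlapped in CG13830 at every hour with more than 1 array of each. At 0 h the tud females had log2 ratios of 0.95, 0.37 and 0.65, and the tud males had 0.47, 0.13 and -0.01. At 24 h the females had 0.98 and 0.18, and the males had 0.92, 0.92 and 0.64. The ranges overlapped at both hours. At 48 h the females had -1.02, -0.53 and -0.36, and the males had -0.07 and -0.54. At 72 h the values were 0.14, -0.82 and 0.04 in females and -0.56, 0.35 and -0.36 in males. Here the sexes overlapped again. At 96 h the females had 0.61, 0.35 and 0.33, all above the single male value of -0.15.

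The sex difference of CG13830 in tud progeny did not pass the threshold in any test. From 0 to 72 h it was 0.46 ± 0.36, -0.25 ± 0.41, -0.33 ± 0.41 and -0.02 ± 0.36 (SE), with adjusted p of 1, 0.927, 0.878 and 1 in limma. The mean over 0 to 72 h was -0.03 ± 0.19 (SE), with a 95% interval of -0.42 to 0.36 (joint adjusted p = 0.993 in limma). Its sign turned with limma's array weights (0.01) and when any of 4 arrays was left out. A difference of up to 0.36 toward females or 0.42 toward males is within the error. The change of the difference over 0 to 72 h had an adjusted p of 1 in limma, where 0.322% of probes passed. At 96 h the difference was 0.59 ± 0.51 (SE) against the lone male array, whose spread was taken from the other groups, and was not tested. At 0 of 2 hours with complete values did all tud females lie above all tud males, where 30% of the probes complete at all 5 hours did so at 1 or more.

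In wild type the separation of CG13830 was widest at the start of metamorphosis. At 0 h the wild type females had 1.37, 1.74 and 1.51, against -1.53, -0.76 and 1.05 in the wild type males. The male SD of 1.32 was the largest of the 19 groups with 2 or more values, and male replicate 3 lay closer to the females than to the other males. At 24 h the females had 0.30, 0.97 and 0.15 and the males -0.32, -0.59 and -0.93. At 48 h they had -0.15, -0.26 and 0.20 in females and -0.94, -0.57 and -0.58 in males. At these 3 hours all females lay above all males, as they did at 3 or more hours for 19.2% of probes with complete values, and nothing is read from this since the same values chose the gene. At 72 h the values were 0.006, -0.004 and -0.29 in females and 0.15, -0.71 and -0.49 in males. At 96 h the females had -0.29, 0.50 and 0.40 and the males -0.08, -0.11 and -0.55. The sexes overlapped at both of the late hours. The female minus male difference was 1.95 at 0 h, or 3.86-fold, and then 1.09, 0.63, 0.25 and 0.45 at the later hours, each with an SE of 0.36. Without male replicate 3 the 0 h difference was 2.68, and without male replicate 1 it was 1.39. The mean was 0.87 ± 0.16 (SE) over all hours, 0.61 over 24 to 96 h, and 0.79 over all hours with the arrays centred on their medians.

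**Figure D2:**
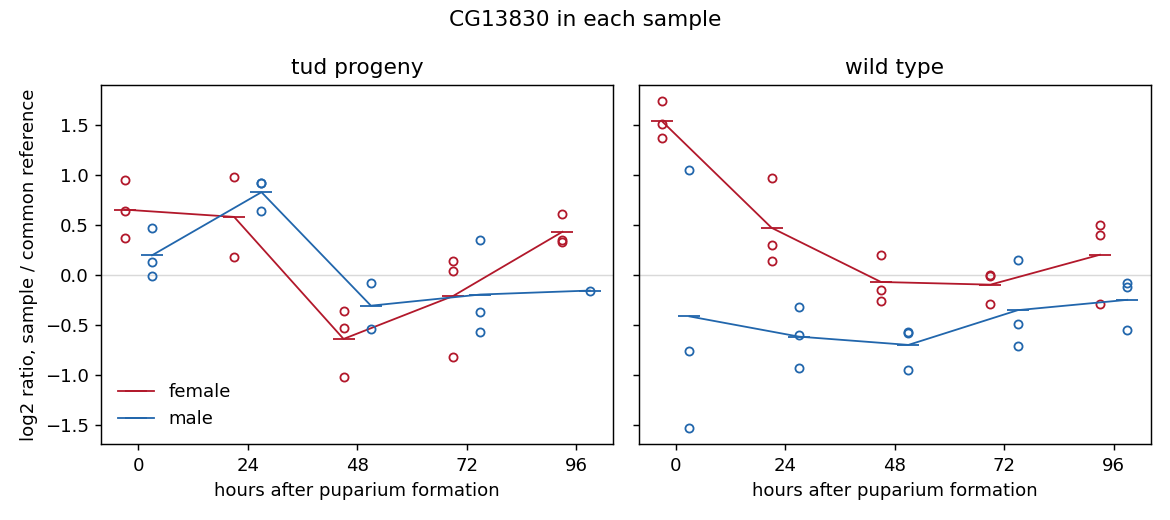
Log2 ratio of CG13830 to the common reference in each sample (open circles) against hours after puparium formation, with tud progeny on the left and wild type on the right, females in red and males in blue. Lines join the group means. The wild type females at 0 h (mean 1.54) are the highest group, the wild type males at 0 h are spread from -1.53 to 1.05, and the tud males have 1 value at 96 h.

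The time course of CG13830 turned on single steps. In tud progeny the mean of the sexes was 0.43, 0.71, -0.47 and -0.20 from 0 to 72 h. The time effect over 0 to 72 h had an adjusted p of 0.000579 in limma, where 91.5% of probes passed. In the only step that passed, CG13830 fell by 1.18 ± 0.29 (SE) to 48 h, or 2.26-fold (adjusted p = 0.000758 in limma, 59.8% of probes called). The steps to 24 h (0.28 ± 0.27) and to 72 h (0.27 ± 0.27) had adjusted p of 0.415 and 0.428 in limma, and among the alternatives both passed only with Storey's q (0.142 and 0.14).

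In wild type the mean of the sexes was 0.56, -0.07, -0.38, -0.22 and -0.02 from 0 to 96 h. The span of 0.94 had an adjusted p of 0.011 in limma, where 93.7% of probes passed. CG13830 fell by 0.63 ± 0.26 (SE) to 24 h (adjusted p = 0.0476 in limma, 49.2% of probes called). The later steps of -0.31, 0.16 and 0.20 had adjusted p of 0.374, 0.647 and 0.52 in limma, and among the alternatives the last passed with Storey's q (0.142). The call of the step to 24 h, a mean of the sexes, rested on wild type male 0 h replicate 3. Without that array the step was -0.27 (adjusted p = 0.329 in limma) and the span was 0.58 (adjusted p = 0.0964). That array does not enter the female means, which fell from 0 to 24 h. With array weights the step was -0.41 (adjusted p = 0.151 in limma). The means of wild type females were 1.54, 0.47, -0.07, -0.09 and 0.20 at the 5 hours, while those of wild type males were between -0.70 and -0.25. The male range rests on the same array. For the 0 h male mean of -0.41, replicates 1 and 2 (-1.53 and -0.76) lay below this range and replicate 3 (1.05) above it. In tud progeny both sexes were above 0 at 0 and 24 h and below 0 at 48 and 72 h.

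The genotype difference of CG13830 was widest at 0 h in females and at 24 h in males. At 0 h tud females averaged 0.65 ± 0.29 and wild type females 1.54 ± 0.19 (SD, n = 3 each), a difference of -0.88 ± 0.36 (SE) with no overlap. At 24 h tud males averaged 0.83 ± 0.16 and wild type males -0.61 ± 0.30 (SD, n = 3 each), a difference of 1.44 ± 0.36 (SE) or 2.72-fold, also with no overlap. In females the differences at 24, 48, 72 and 96 h were 0.11, -0.57, -0.11 and 0.23. In males those at 0, 48, 72 and 96 h were 0.61, 0.39, 0.16 and 0.09, the last with 1 tud array. The male difference at 0 h was 0.05 without wild type male replicate 1 and 1.34 without wild type male replicate 3. Leaving out 1 array turned the sign at 24, 72 and 96 h in females and at 72 and 96 h in males. The mean over 5 hours was -0.25 ± 0.17 (SE) in females, and -0.09 over 24 to 96 h, and it was 0.54 ± 0.18 in males. The tud minus wild type sex difference averaged -0.78 ± 0.25 (SE), with -1.49, -1.33, -0.96, -0.27 and 0.14 from 0 to 96 h. All tud females lay below all wild type females at 2 of 4 complete hours, 0 and 48 h (background 15.3% of probe and hour combinations in that direction, 17.1% in the other). All tud males lay above all wild type males at 1 of 3 complete hours, which is close to the 31.8% over all probes (14.9% in the other direction). For CG13830 too, these comparisons hold the wild type arrays that chose the gene. Its name also came from the list drawn from wild type against tud females. No test is given, and nothing is read from these counts.

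**Figure D3:**
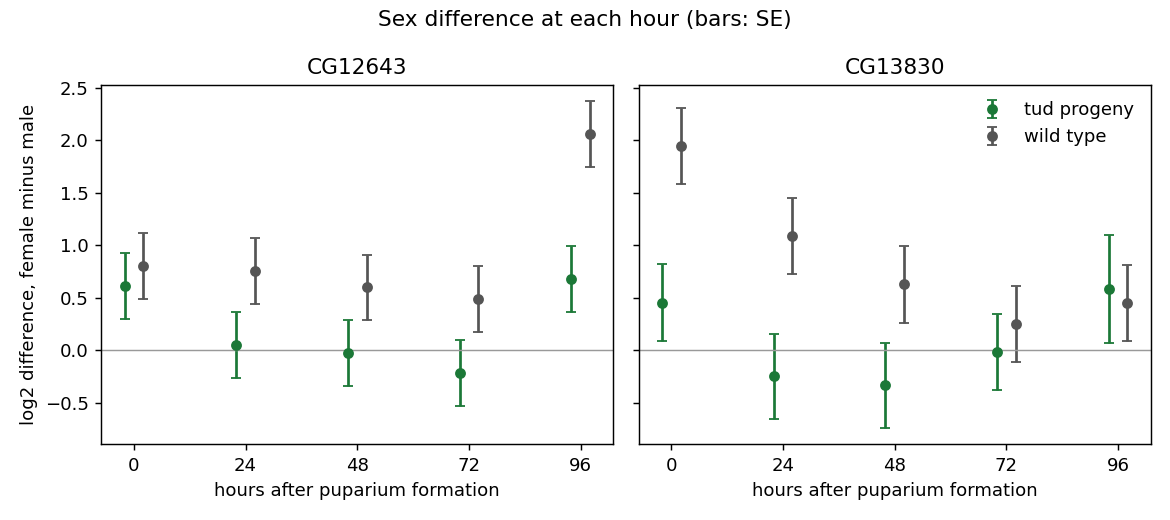
Female minus male log2 difference (points) with its SE (bars) at each hour after puparium formation for CG12643 on the left and CG13830 on the right, tud progeny in green and wild type in grey. The wild type difference is largest at 96 h for CG12643 (2.06) and at 0 h for CG13830 (1.95), and the tud difference lies between -0.33 and 0.68 in both genes.

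**Figure D4:**
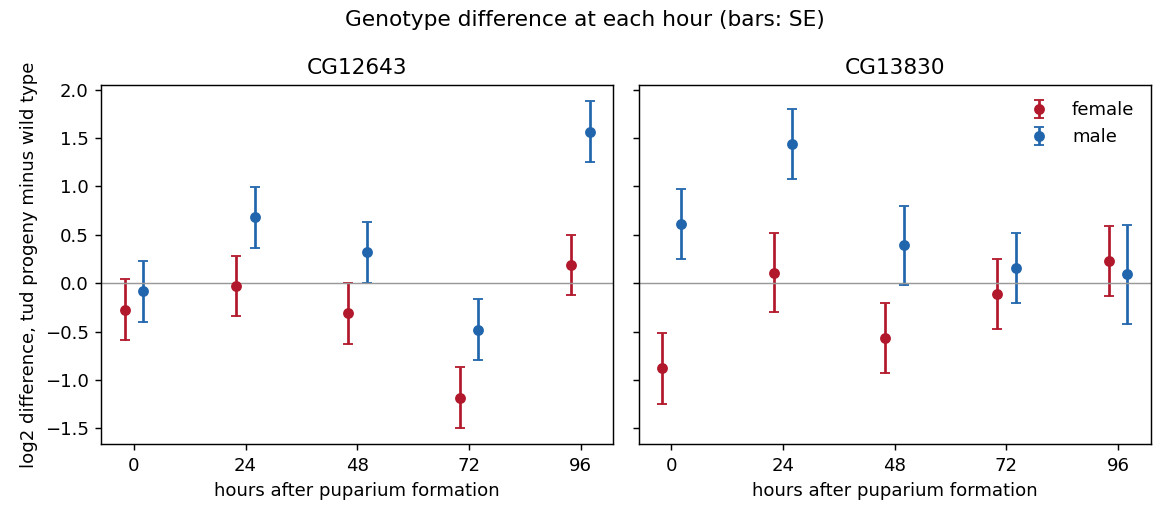
Log2 difference of tud progeny minus wild type (points) with its SE (bars) at each hour after puparium formation for CG12643 on the left and CG13830 on the right, females in red and males in blue. The lowest point is -1.18 in females at 72 h and the highest 1.57 in males at 96 h, both for CG12643, and CG13830 in males is highest at 24 h (1.44).

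Side by side, CG12643 and CG13830 had mean sex differences in wild type of 0.94 ± 0.14 and 0.87 ± 0.16 (SE), with the widest difference at opposite ends of metamorphosis. The span of the wild type hour means was 3.58 for CG12643 and 0.94 for CG13830, and over 0 to 72 h it was 0.99 and 0.94. The group means of CG12643 spanned 5.01, with wild type females at 0 h on top (0.71) and wild type males at 96 h at the bottom. Of the 19 neighbouring pairs in this order 18 overlapped in their arrays, and the exception was tud males at 96 h above wild type males at 96 h. The group means of CG13830 spanned 2.23, with wild type females at 0 h on top and wild type males at 48 h at the bottom (-0.70). Again 18 of 19 neighbouring pairs overlapped, and the exception was wild type females at 0 h above tud males at 24 h (0.83). Over the 20 group means the correlation of the pair was 0.31 by Pearson's r and 0.41 by Spearman's rho, where all points share the arrays and the reference. Both probes were also chosen as higher in wild type females at all 5 hours, so part of this likeness was set by the choice. Among the 2842 other probes with at least 2 values in every group, 44.3% followed CG12643 more closely than CG13830 did. Those probes were not chosen in this way, and nothing is read from that share. The residual SD within groups was 0.39 for CG12643 and 0.45 for CG13830, both above the median of 0.30 over the probes tested.

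By the same measure, the probes most like CG12643 over the 20 group means were CG18477 (r = 0.96) and DAC022D05, DAC037J15, DAC020K04 and DAC010A14 (r = 0.95 for all 4, to 2 decimals), which have no paired name. Such likeness was common, with 373 probes above 0.8 and a median r of 0.19, and none of these 5 was among the 5 most alike by Spearman's rho. For CG13830 the most alike were AP-1sigma (CG5864, r = 0.80), a subunit of the clathrin adaptor AP-1, DAC008J01 (r = 0.75), wol (CG7870, r = 0.73), which acts in N-glycosylation, MSBP (CG9066, r = 0.72), a membrane steroid binding protein, and fwe (CG6151, r = 0.70), a membrane protein of cell competition. No probe exceeded 0.8 for CG13830 (median r = 0.09), and 4 of these 5 were also among the 5 most alike by Spearman's rho. The mean of CG13830 in tud males at 96 h entered as its 1 array.

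The Wingless pathway, in which Cow acts, was sparsely represented by name. Every p in this comparison is from the joint test over the 5 hours, and the differences printed are means over those hours, whose own direction was not tested. Of 38 listed genes other than CG13830, 5 had a named probe, and a probe mostly has a name here because it stood in one of the study's gene lists. In tud progeny 3 of them were tested for a sex difference and 0 passed in limma, and 1 of the 3, slmb, had an unadjusted p under 0.05, a level that 13.3% of all probes tested reached, while 3.24% of all were called. In tud progeny slmb had a mean difference of -0.08 ± 0.11 and pygo of -0.18 ± 0.13 (SE). In wild type 4 were tested, and 2 passed, 1 with a higher and 1 with a lower mean in females, while 72.4% of all probes tested passed, 53.3% with a higher and 19% with a lower mean in females. slmb, the F-box protein that marks Armadillo for degradation, had a mean female minus male difference of 0.45 ± 0.10 (SE, joint adjusted p = 0.00407 in limma). pygo, a nuclear co-activator of Armadillo, had a mean difference of -0.64 ± 0.12 (SE, joint adjusted p = 0.00122 in limma). The co-receptor gene arr had 0.43 ± 0.20 and lgs, the adaptor between Armadillo and Pygopus, had -0.04 ± 0.09 (SE, joint adjusted p = 0.509 and 0.286 in limma). The median of the list was -0.08 in tud progeny and 0.20 in wild type, beside medians over all probes tested of -0.0003 and 0.20.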

How the data were processed

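RNA of whole animals was labelled and hybridised to 2-colour oligonucleotide arrays against a common reference. The authors discarded bad elements and elements weak in both channels, normalized each array by global loess in LIMMA and deposited log2 ratios of sample to reference. No background correction or normalization between arrays was stated, and raw intensities were not used here. Of 15776 elements 32 controls were left out.

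The 20 group means were fitted to all 60 arrays by least squares per probe. Variances were moderated by limma 3.58.1 in R 4.3.3 (prior of 2.82 degrees of freedom, variance 0.106). Joint comparisons used a moderated F test and single contrasts the moderated test of 1 contrast. A probe was tested when every group compared had values on at least 2 arrays, p-values were adjusted over all probes tested (Benjamini-Hochberg), and the threshold was 0.15. The fit was tested on simulated data. Figures were drawn with matplotlib 3.10.9. The number of arrays limits the precision.

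Genes named were CG12643 and CG13830, the 5 probes with the highest Pearson's r with each, and members of the Wingless list past the threshold. The other members of that list that were tested were named for completeness. Both genes, the lists and the tests were chosen with earlier results of these data known. Gene names came from the lists published with the study and from RefSeq, and cover 2348 of the probes with a value. Alternatives were a fit of the arrays compared alone, a replicate block, 2 normalizations between arrays, values on all 3 arrays, array weights, Storey's q (the study used q values) and leaving out each array. Windows of hours were added after seeing the data. Replicate numbers showed no general pairing of the samples. Over 570 pairs of arrays with the same number from different groups, deviations had a median correlation of 0.0014 (lowest -0.55, highest 0.58). Pairing of the sexes within an hour was not tested separately.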

Additional observations from a re-analysis of the deposited data

How the results depend on the processing

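With 18 joint, mean and list results, 114 of the 116 values under alternatives other than leaving out an array were unchanged. So were 504 of the 508 values with an array left out. Unchanged means the same direction and side of the threshold or, if untested, a move within the spread between replicates. Part of this agreement was fixed in advance. The mean differences of CG12643, complete on all arrays, cannot move with the arrays compared alone, the replicate block or the filter on 3 values. The spread used was an SD of 0.38 for CG12643 and 0.44 for CG13830, wider than the SE of any mean over hours. The male genotype mean of CG12643, 0.40, thus counted as unchanged at 0.11 over 0 to 72 h. The exceptions to the counts were these. The mean tud sex difference of CG13830 over 0 to 72 h, -0.03, became 0.0081 with array weights, and ran from -0.081 to 0.041 when arrays were left out, with no call in any case. Of the Wingless list, 0 genes passed in wild type when values on all 3 arrays of every group were required, since only 1 was then tested. With that filter the joint tud tests of CG13830, its tud sex tests at 24 and 48 h and its tud steps could not be run, and its tud sex tests at 0 and 72 h gave no call. At single hours 705 of 741 values were unchanged in these terms. Among the tested values, signs turned for the wild type step of CG12643 to 24 h (0.041 with array weights, and from -0.23 to 0.12 when arrays were left out, the highest without wild type male 24 h replicate 1), and, with arrays left out, for its tud sex difference at 24 h (-0.0031 to 0.12) and 48 h (-0.19 to 0.055) and for the tud sex difference of CG13830 at 72 h (-0.20 to 0.29), none of which was called. An untested value counted as unchanged while it stayed within the spread between replicates, even where its sign turned. Among these were the genotype differences of CG13830 named above. The female genotype difference of CG12643 also turned sign, at 24 h with arrays left out (-0.13 to 0.096) and at 96 h with quantile normalization (-0.012). The replicate block, used although the numbers showed no general pairing of the samples, left the mean tud sex difference at 0.22 for CG12643 (adjusted p = 0.526 in limma) and at -0.03 for CG13830 (adjusted p = 0.998), and changed no call. The cause of these changes was not tested. Low ratios at 96 h have no known background, and the number of arrays limits all values.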
